A study of Homo sapiens with 10 samples.

Results

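The genes that encode the proteins of the cytosolic ribosome were examined in lists of H3K27ac ChIP-seq peaks from 2 breast cancer cell lines, SKBR3 and MDA-MB-453, with and without the cytokine TWEAK. Members were chosen by symbol from the GENCODE release 44 protein-coding genes of chromosomes 1 to 22 and X. A member carries RPL or RPS followed by a digit, or is RPSA, RPLP0, RPLP1 or RPLP2, while the RPS6K kinases and the paralogue copies ending in L were left out. The rule returned 81 of 19970 genes. Of these, RPL17-C18orf32, RPL36A-HNRNPH2 and RPS10-NUDT3 are readthrough genes and RPS19BP1 is no ribosomal protein, so these 4 were set apart and 77 genes were counted. They comprise 43 genes of the large 60S subunit, 31 of the small 40S subunit and the 3 stalk genes RPLP0, RPLP1 and RPLP2.

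SKBR3 and MDA-MB-453 are established human breast cancer lines that the submitters class as HER2 breast cancer. TWEAK is the ligand of the receptor Fn14, and the experiment asked how this signal alters the acetylated chromatin of HER2 lines. In all 4 groups, cells were grown for 24 h after seeding and then kept for 8 h in Opti-MEM. In the treated groups, TWEAK was then present at 10 ng/ml for 48 h, with a fresh addition at 24 h. Untreated and TWEAK-treated cells gave 2 libraries each in either line, and each group stands for cultures of a single line. The labels do not say whether the 2 libraries of a group came from separate cultures, while the study's methods speak of biological replicates, so p-values measure only the spread between these libraries.

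A ribosome needs its proteins in equal amounts, so their genes are transcribed at high and matched rates in all growing cells. Most are short, many carry small nucleolar RNAs in their introns, and their transcripts typically start at a C within a pyrimidine tract, the terminal oligopyrimidine (TOP) motif through which mTOR controls their translation. H3K27ac, acetylation of lysine 27 on histone H3, marks active promoters and enhancers, and at a highly transcribed gene it commonly spreads from the start site into the gene body.

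The start sites of 6 members described below show this motif, at or next to the annotated start. RPS19, RPL26, RPL29 and RPS14 carry peaks that differed with TWEAK or between the lines, RPL36A had the lowest mean peak rank, and RPL19, which differed most in rank between the lines, has its pyrimidine run just before the annotated start. Each window spans 10 bases before the RefSeq start and 20 bases from it, on the hg38 assembly, 5′ to 3′ on the gene's strand. Capitals mark the unbroken pyrimidine run that begins at the annotated start, so RPL19 has no capitals.
RPS19, chr19:41860245-41860274, plus strand: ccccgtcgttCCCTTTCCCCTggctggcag
RPL26, chr17:8383174-8383203, minus strand: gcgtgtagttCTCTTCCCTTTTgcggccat
RPL29, chr3:51995876-51995905, minus strand: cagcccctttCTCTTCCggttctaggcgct
RPS14, chr5:150449720-150449749, minus strand: ccctcccactCTCTCTTTCCggtgtggagt
RPL36A, chrX:101391001-101391030, plus strand: ctcgcggtttCTTTCTTTCCgcgccgatag
RPL19, chr17:39200273-39200302, plus strand: tctccccttcgcagataatgggaggagccg

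RefSeq promoter sequences matched 62 of the 77 members. A C followed by at least 4 pyrimidines stood exactly at the annotated start of 42 (67.7%), against 4.66% of the 15315 protein-coding promoters in the table. Allowing such a run to begin within 5 bases of the annotated start gave 50 members (80.6%), RPL19 among them, against 22.2% of all promoters. In the window from 250 bases before to 50 after the start, read on both strands, the ETS core CCGGAAG was present in 33.9% of members and 14.4% of all promoters, and the YY1 motif AAGATGGCG in 8.06% and 2.80%. The TATA box TATAAA was in 8.06% and 9.64%, the SP/KLF box GGGCGG in 54.8% and 59.2%, and the E-box CACGTG in 4.84% and 8.88%. Median GC content of the window was 59.0% for members and 63.0% for all. A match describes these letters only, and says nothing of a bound factor.

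The deposited lists held between 36148 and 51687 peaks. SKBR3 lists were the longer ones, with a lower share of peaks at q under 1e-05, of 39.4% to 52.6% against 59.8% to 63.8% in MDA-MB-453. Read numbers were not used here, so depth is unknown. Promoter peaks of the luminal genes ERBB2, KRT8, KRT18, EPCAM, GATA3 and FOXA1 were in all 8 lists, and ESR1, PTPRC, CD3E, COL1A2 and PECAM1 had none, while the fibroblast marker COL1A1 and the endothelial marker CDH5 had peaks in all 8.

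Acetylation at the promoters of ribosomal protein genes was close to universal. A peak within 1 kb of a start site was present in all 8 lists for 75 of 77 members (97.4%), against 49.6% of all protein-coding genes (9913 of 19970). No peak served more than 1 member. The large subunit gave 42 of 43, the small subunit 30 of 31 and the stalk 3 of 3.

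RPL24, of the large subunit, had no listed promoter peak in any library, and the nearest listed peak lay 37.6 to 56.8 kb away. In all 8 lists, 2 or 3 consecutive peak numbers were missing from the interval that holds RPL24, whereas only 0.221% to 0.272% of intervals between neighbouring peaks lack any number. The peaks that carried those numbers were not analysed here, and the absence of RPL24 from the lists cannot be read as an absence of acetylation.

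The peaks of members were ranked within their own list by the authors' score, and the rank is given as a percentile, with 100 for the strongest peak of the list. Members ranked like the promoter peaks of other genes. The median percentile of the 75 members was 85.7 and 83.9 in untreated and 85.0 and 83.8 in TWEAK-treated SKBR3, against 83.0, 81.8, 81.7 and 79.8 over all 9913 genes. In MDA-MB-453 it was 77.4 and 80.7 in untreated and 80.6 and 79.1 in treated cells, against 80.1, 81.0, 81.3 and 81.0 over all genes. The members therefore sat somewhat above the all-gene median in all 4 SKBR3 lists and below it in all 4 MDA-MB-453 lists. Peaks at or above the 90th percentile in all 8 lists were found at 9 members (12%), close to the 12.5% of all genes, and 71 members were at or above the 50th percentile throughout.

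**Figure D1:**
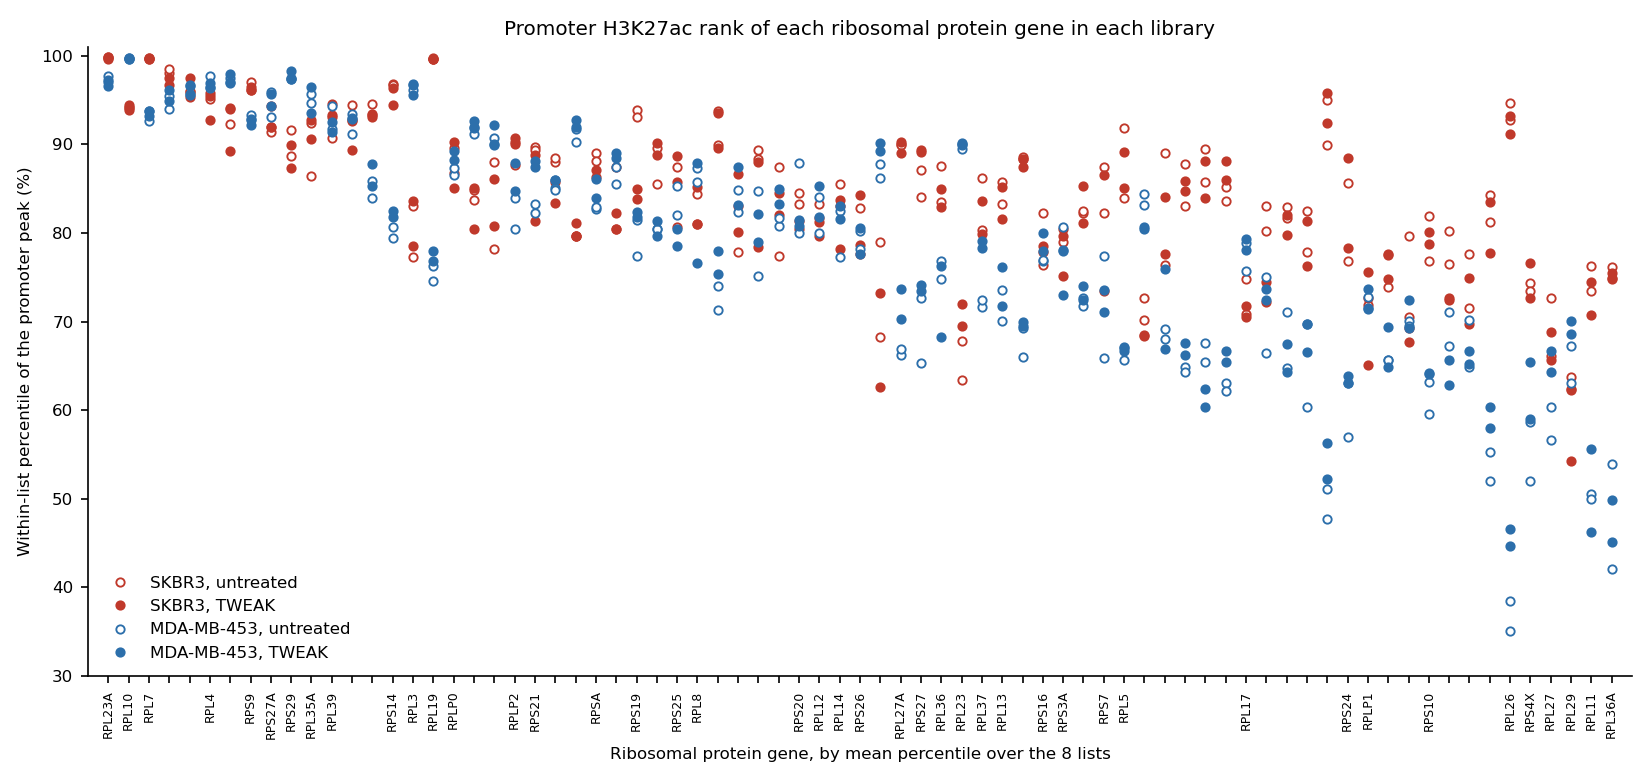
Within-list percentile of the promoter peak for each ribosomal protein gene with a peak in all 8 lists, 1 point per library. The axis does not start at 0. SKBR3 and MDA-MB-453 are in separate colours, with names for the genes described in the text. RPL23A sits at 96.6 or higher in every list, and RPL26 separates into SKBR3 points from 91.2 to 94.7 and MDA-MB-453 points from 35 to 46.6.

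The 9 members at or above the 90th percentile throughout included RPL4, RPL7, RPL10, RPL23A and RPL39 of the large subunit and RPS9 and RPS27A of the small subunit. By mean percentile over the lists RPL23A, RPL10 and RPL7 were among the highest. RPL23A, which lines the mouth of the peptide exit tunnel, ranked at 99.9, 99.8, 99.9 and 99.7 in SKBR3 and at 97.1, 97.7, 97.3 and 96.6 in MDA-MB-453. RPL39, another protein of the exit tunnel, ranked at 93.1, 90.7, 94.6 and 93.3 in SKBR3 and at 91.7, 94.3, 92.5 and 91.4 in MDA-MB-453. Unlike those of RPL23A, the RPL39 libraries of the lines overlapped.

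The lowest mean percentiles belonged to RPL36A, RPL11, RPL29, RPL27 and RPS4X. RPL36A ranked at 76.2, 74.9, 75.5 and 74.8 in SKBR3 and at 42.0, 53.9, 45.1 and 49.8 in MDA-MB-453. RPL11, which with RPL5 and the 5S RNA binds the p53 regulator MDM2, ranked at 73.5, 76.3, 74.5 and 70.7 in SKBR3 and at 50.5, 49.9, 46.2 and 55.6 in MDA-MB-453. Both were lower in every MDA-MB-453 library than in any SKBR3 library. RPL11, RPL26 and RPL36A were among the 4 members that fell below the 50th percentile in any list, always in MDA-MB-453. As a description over the 75 members, Spearman's rho of the ranks was 0.833 to 0.977 between libraries of the same line and 0.383 to 0.485 between libraries of different lines.

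The peaks of ribosomal protein genes were wider than those of most genes, above all in SKBR3, and the extra width lay on the transcribed side. Median width was 3546 and 3590 bp in untreated and 3843 and 4172 bp in treated SKBR3 cells, against 1926 to 2076 bp over all genes. In MDA-MB-453 it was 2548 and 2560 bp without and 2960 and 2523 bp with TWEAK, against 2290 to 2349 bp. From the canonical start, the median peak reached 2321 to 3108 bp downstream in SKBR3 and 1364 to 1765 bp in MDA-MB-453, against 951 to 1026 bp and 1179 to 1218 bp over all genes. Upstream, the median reach was 835 to 952 bp in SKBR3 and 952 to 1031 bp in MDA-MB-453, near the all-gene values of 802 to 875 bp and 960 to 984 bp.

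**Figure D2:**
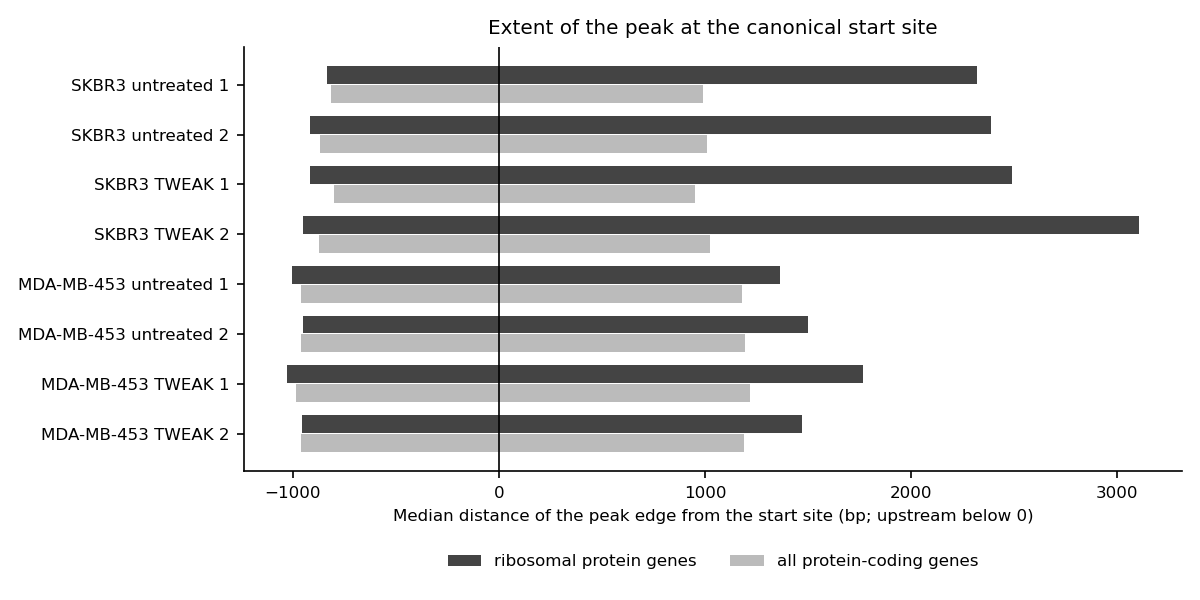
Median distance in bp that the promoter peak reached upstream and downstream of the canonical start site in each of the 8 lists, for ribosomal protein genes and for all protein-coding genes with a peak in every list. Downstream reach of members is 2321 to 3108 bp in SKBR3 and 1364 to 1765 bp in MDA-MB-453, while upstream reach stays near that of all genes.

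Because the genes are short, with a median transcript length of 4450 bp against 27185 bp for all genes, the peaks took up much of each transcription unit. In SKBR3 they covered a median of 61.5% of the transcript, against 3.92% over all genes, and in MDA-MB-453 38.2%, against 4.52%. In all 4 SKBR3 lists the peak ran past the transcript end at 16 members (21.3%), against 3.64% of all genes, and in MDA-MB-453 at 10 (13.3%), against 2.96%. Peaks wider than 5 kb in all 4 lists were found at 18 members (24.0%) in SKBR3 and 7 (9.33%) in MDA-MB-453, against 10.9% and 8.44% of all genes. SKBR3 had 60 members above the all-gene median width in all 4 lists, and MDA-MB-453 had 38. The share of all genes above it in all 4 lists is not given here.

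The widest promoter peaks were those of RPL23A, RPL3 and RPL12. RPL23A spanned 12863, 12426, 12905 and 12362 bp in SKBR3 and 11949, 12332, 11891 and 11965 bp in MDA-MB-453, and in both lines its peak also held the starts of NEK8 and TLCD1. RPL3, next to the peptidyl transferase centre of the ribosome, had peaks of 12487, 12705, 12585 and 12853 bp in SKBR3 but 5361, 5193, 5268 and 5142 bp in MDA-MB-453. RPS20, RPL36 and RPL5 were the narrowest, although the RPL36 peak taken was the one near its canonical start in only 1 list. At that canonical start RPL36 peaks spanned 2026 to 3462 bp in SKBR3 and 1936 to 2450 bp in MDA-MB-453. RPS20 spanned 672, 1416, 1359 and 1144 bp in SKBR3 and 1002, 1197, 1021 and 1519 bp in MDA-MB-453, so the lines overlapped.

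More ribosomal protein promoters ranked higher in SKBR3 than lower, while the number that differed at all was near that of other genes, with 51 of 75 members and 6308 of 9913 genes called. For this comparison the rank was put on a log2 odds scale, the log2 of peaks ranked below over peaks ranked above, and tested with limma across the 9913 genes with Benjamini-Hochberg adjustment at 0.05. A difference of 1 doubles those odds. Of the 75 members, 37 were called higher in SKBR3, where 33.0% of all tested genes were, and 14 were called lower, where 30.6% were. The median difference of members was 0.47, against 0.03 for all genes. All 4 SKBR3 libraries lay above all 4 MDA-MB-453 libraries for 35 members (30.1% of all genes) and below them for 13 (29.1%), and 27 overlapped.

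The size of this tilt depends on how lists of unequal length are ranked. With peaks at q under 1e-05 only, 23 of 74 members were called higher and 18 lower, beside 1716 and 3061 of 7802 genes. The member median was -0.02 against -0.45 for all genes. With every list held to equal length the split was 26 and 17, beside 2106 and 3799 of 9501 genes. The medians were 0.06 and -0.39, so in each case members stood above the median gene.

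**Figure D3:**
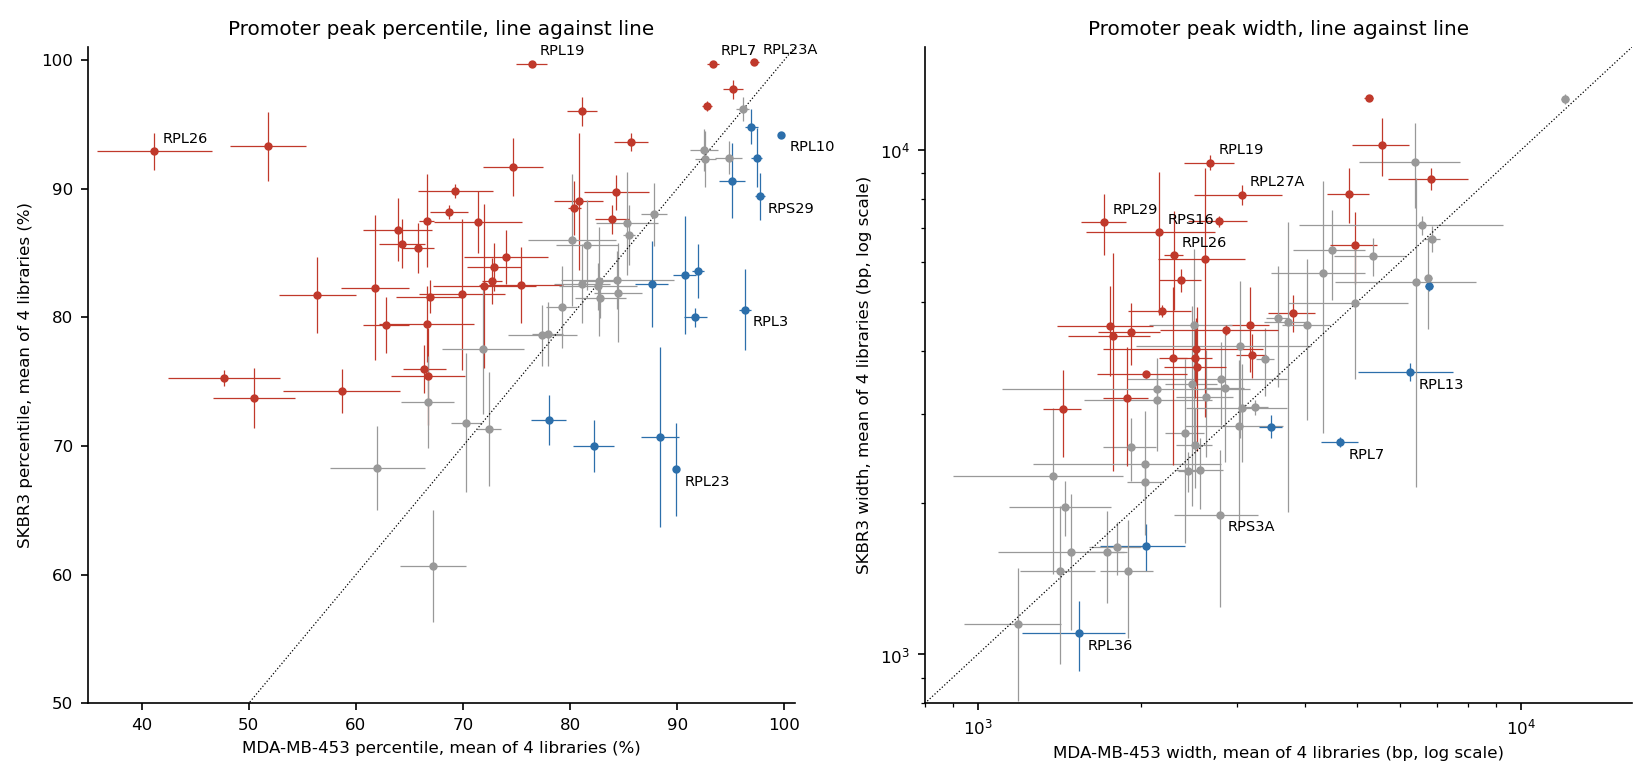
Mean percentile and mean width of the promoter peak in SKBR3 against MDA-MB-453 for the 75 ribosomal protein genes, each point the mean of 4 libraries with SD as error bars, red for genes called higher in SKBR3 and blue for those called lower by limma. In rank, 37 points are red and 14 blue, and in width 28 are red and 6 blue.

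Among large subunit genes, 22 of 42 were called higher in SKBR3 and 10 lower, beside 33.0% and 30.6% of all genes. RPL19, a protein of the intersubunit bridges, had the largest rank difference, ranking at 99.8, 99.6, 99.7 and 99.7 in SKBR3 and at 74.6, 76.3, 76.8 and 78.0 in MDA-MB-453 (log2 odds difference 6.77, SE 0.24, limma adjusted p = 4.313e-07). RPL7 ranked at 99.6 to 99.8 in SKBR3 and 92.6 to 93.8 in MDA-MB-453 (4.69), and RPL23A followed at 4.56. RPL26, which is also known to bind p53 mRNA, ranked at 92.7, 94.7, 91.2 and 93.2 in SKBR3 and at 38.4, 35, 46.6 and 44.7 in MDA-MB-453 (difference 4.26, SE 0.19, limma adjusted p = 8.077e-07). None of these 4 genes had overlapping lines.

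The members most clearly lower in SKBR3 were RPL10, RPL3, RPS29 and RPL23. RPL10, which joins the 60S subunit late in its assembly, ranked at 94.1, 94.2, 94.4 and 93.9 in SKBR3 and at 99.8, 99.7, 99.7 and 99.8 in MDA-MB-453 (difference -4.63, SE 0.25, limma adjusted p = 1.536e-06). RPL3 ranked at 77.3, 83.0, 78.5 and 83.6 against 96.8, 96.1, 95.6 and 96.7 (-2.65), although its peak was the wider in SKBR3. RPL23, another binder of MDM2, ranked at 67.8, 63.4, 69.5 and 72.0 against 89.5 to 90.2 (-2.05). RPS29 differed by -2.32 at an alternative start, where the peak of both lines also held the start of LRR1, and by -0.58 at its canonical start.

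Of the 30 small subunit genes tested, 14 were called higher in SKBR3 and 4 lower, beside 33.0% and 30.6% of all genes. RPS14, the ribosomal protein gene lost in the 5q- syndrome, ranked at 96.8, 96.7, 94.4 and 96.4 in SKBR3 and at 79.4, 80.7, 82.5 and 81.8 in MDA-MB-453 (2.53). Among the stalk genes, whose proteins recruit the translational GTPases, RPLP2 alone was called, higher in SKBR3 by 0.69, and the call was lost by fold enrichment (0.57), with lists of equal size (0.33) and at q under 1e-05 (0.29). RPLP0 and RPLP1 differed by 0.03 and -0.07 with SEs of 0.22 and 0.20.

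Ranking by the authors' fold enrichment in place of the score reduced the largest differences. RPL19 still differed, but by 0.80, and its fold enrichment was 7.27, 7.83, 8.58 and 7.04 in SKBR3 and 8.17, 7.94, 8.07 and 8.40 in MDA-MB-453. The RPL19 peak, which in SKBR3 also takes in the start of CACNB1, was long and highly scored in SKBR3. Its fold enrichment ratios overlapped between the lines. Ranked by fold within each list, it stood at 84.6, 78.7, 84.0 and 79.7 in SKBR3 and at 70.7, 71.2, 72.4 and 74.0 in MDA-MB-453. RPL7 differed by 1.13, RPL23A by 2.63, RPL10 by -2.09, RPL3 by -1.27, RPL23 by -1.33 and RPS29 by -1.26. RPL26 kept a difference of 4.45, with folds of 11.4, 16.8, 12.6 and 13.0 against 4.45, 4.10, 5.03 and 4.88. RPS14 differed by 2.17.

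Ranked by fold enrichment, 33 members were called higher in SKBR3 and 13 lower, beside 3219 and 2790 of 9913 genes. The score and the fold rankings both called 29 members higher and 10 lower, and they called 2 in opposite directions. The same overlap over all genes is not given here. RPL4, whose protein lines the exit tunnel, was lower in SKBR3 by score (-0.76) and higher by fold rank (0.88). RPSA, also known as the laminin receptor, was higher by score (0.44) and lower by fold rank (-0.82). Its fold enrichment was 5.72, 6.91, 6.06 and 5.77 in SKBR3 and 11.4, 10.5, 11 and 11.9 in MDA-MB-453, and no direction is given here for either gene.

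For some members the genes nearby differed in the same direction. Within 500 kb of RPL10, 20 other tested genes had a median rank difference of -2.40, with 15 called lower in SKBR3 and 0 higher. Within 500 kb of RPL23A, 21 genes had a median of 3.05, with 14 called higher and 3 lower. RPL19 and RPL23 both lie on 17q near ERBB2, and their rank differences had opposite signs, at 6.77 and -2.05. The 14 genes near RPL19 were split, with 8 called higher and 5 lower and a median of 0.84. The 9 near RPL23 had a median of -0.76, with 3 called higher and 6 lower. The 18 near RPL26 had a median of 0.45, with 6 called higher and 3 lower. The part of the neighbourhood, and of copy number, which was not analysed here, in the differences between lines was not tested.

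Width calls between the lines fell more to one side than rank calls. Of the 75 members, 28 were called wider in SKBR3, where 17.6% of all genes were, and 6 narrower, where 34.2% were. The median difference was 0.34 on the log2 scale for members and -0.19 for all genes. No overlap between lines was seen for 30 members wider in SKBR3 (17.7% of all genes) and 5 narrower (36.1%), leaving 40 that overlapped. After each library was centred on its all-gene median, 38 members were called wider and 2 narrower, beside 2438 and 2193 of the 9913 genes.

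RPL29 differed most in width, at 8007, 7686, 7298 and 5777 bp in SKBR3 and 1548, 1903, 1783 and 1609 bp in MDA-MB-453 (log2 difference 2.07, SE 0.12, limma adjusted p = 6.319e-05). Its SKBR3 peaks ran downstream from the start and stayed among the weakest members by rank. Its rank difference was -0.41 with an adjusted p of 0.0968 in limma. RPL29 was called lower in SKBR3 by fold enrichment (-0.77), with lists of equal size (-1.02) and at q under 1e-05 (-2.52). RPL19 spanned 9324, 9937, 9260 and 9241 bp against 2567, 2641, 3079 and 2422 bp (1.82). RPS16 differed by 1.65, RPL27A by 1.43 and RPL26 by 1.41. The small subunit gave 16 wider and 1 narrower call among 30 genes, and the large subunit 11 and 5 among 42. Over all genes, 17.6% were called wider in SKBR3 and 34.2% narrower.

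The members called narrower in SKBR3 were RPL7, RPL13, RPL36, RPL10, RPL14 and RPS29. At the canonical starts only 4 were, since RPL36 (0.29, adjusted p = 0.2546 in limma) and RPS29 (0.15, adjusted p = 0.3779) lost the call and changed sign there. RPL7 spanned 2562, 2709, 2628 and 2645 bp in SKBR3 and 5179, 4545, 4556 and 4311 bp in MDA-MB-453 (-0.82), while its rank was the higher in SKBR3. The RPL7 peak of both lines also held the start of RDH10. Its mean reach in SKBR3 and MDA-MB-453 was 1624.5 and 3240.0 bp upstream and 1010.5 and 1406.8 bp downstream. RPL13 spanned 3665, 3794, 3635 and 3434 bp against 6879, 6738, 7005 and 4409 bp (-0.76), and the lines did not overlap. RPL3 and RPL7 thus had width and rank differences of opposite sign, as did RPL13.

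**Figure D4:**
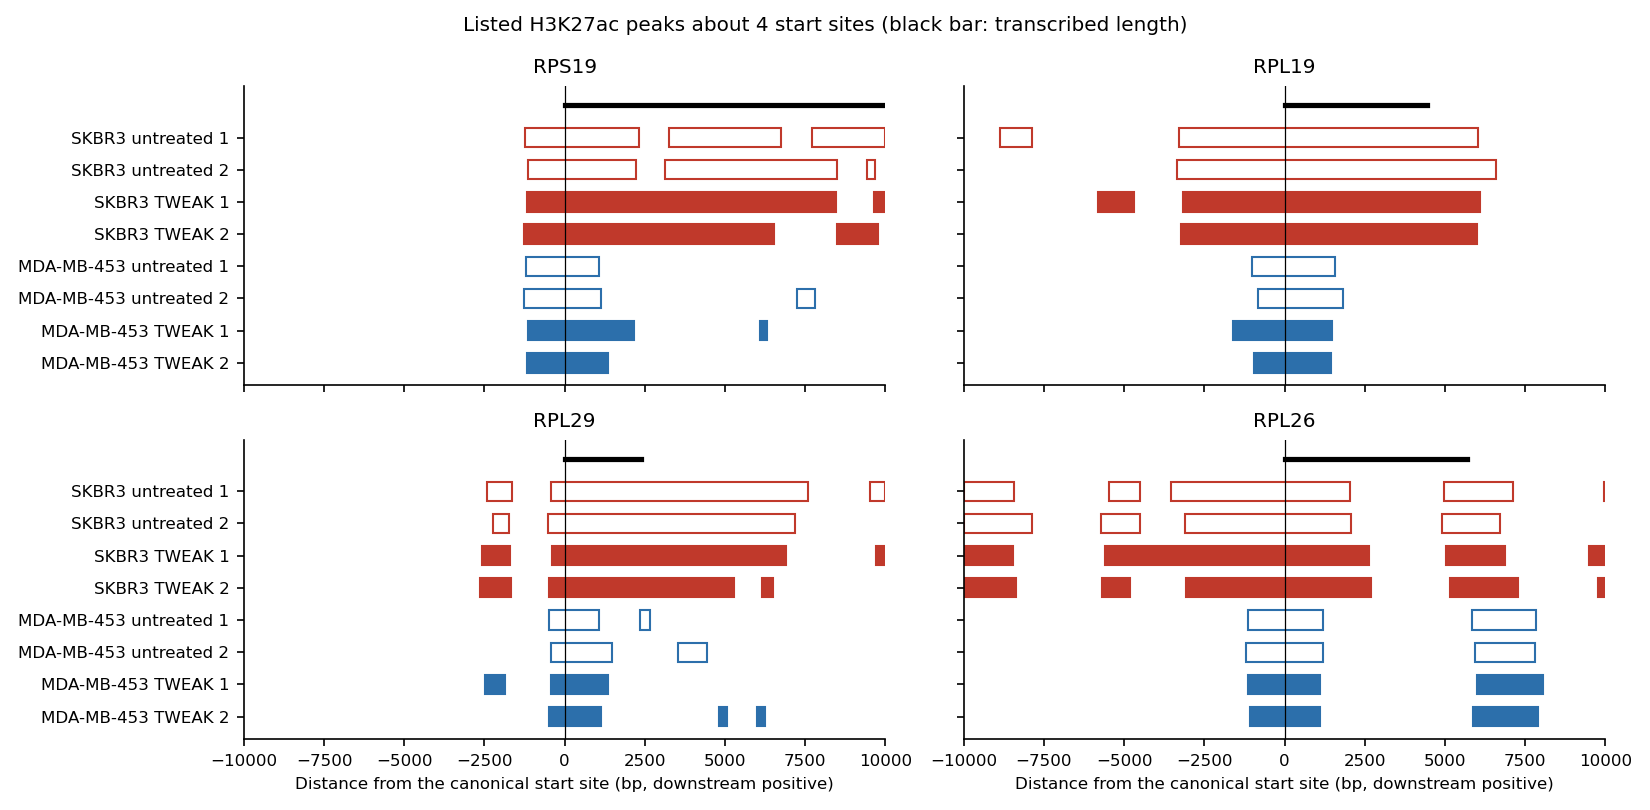
Peaks within 10 kb of the start site of RPS19, RPL19, RPL29 and RPL26 in each of the 8 lists, cut at the window's edges. Distance from the start is in bp along the gene's strand. Untreated peaks are open, TWEAK peaks are filled, and the transcribed length is a black bar. The RPL19 peak spans 9241 to 9937 bp in SKBR3 and 2422 to 3079 bp in MDA-MB-453, and the peak over the RPS19 start in SKBR3 spans 3364 and 3530 bp in the untreated lists and 7794 and 9637 bp in the TWEAK lists.

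TWEAK gave no called change in the rank of any ribosomal protein promoter. In SKBR3, 0 of 75 members passed in limma, where 0.111% of all genes did. At an unadjusted p under 0.05 there were 2 members and 1147 of the 9913 genes. In MDA-MB-453, 0 passed (0.0101% of all genes) and 0 had an unadjusted p under 0.05, against 119 genes. The difference between lines in the TWEAK effect was called for 0 members (0.0101% of all genes), with 2 members and 624 genes at an unadjusted p under 0.05. Over members the lowest adjusted p was 0.141 (SKBR3) and 1.0 (MDA-MB-453). The median SE of a TWEAK difference was 0.29. With 2 libraries a group, the largest member difference, of -1.41 at RPS19 in SKBR3, did not pass after adjustment over the 9913 genes.

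In SKBR3 the median TWEAK difference of members was -0.13, against -0.21 for all genes. Both TWEAK libraries lay below both untreated ones for 15 members (26.2% of all genes) and above for 5 (8.00%). In MDA-MB-453 the median was 0.15, against 0.07, with 29 members above (26.6%) and 5 below (12.2%). In each line the member median thus had the sign of the all-gene median. After centring on the all-gene median the member medians were 0.03 and 0.10.

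RPS19 and RPL7 were among the 3 members with the largest drops in rank in SKBR3, and RPS27 and RPL39 among the 3 with the largest gains. RPL7 ranked at 99.8 and 99.8 untreated and at 99.6 and 99.7 with TWEAK (-0.71). RPS27 ranked at 87.1 and 84.1 untreated and at 89.4 and 89.1 with TWEAK (0.47). RPL39 differed by 0.44, and none of these genes passed the test.

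In MDA-MB-453 the lowest TWEAK differences in rank were at RPS25, RPL8 and RPS20 and the highest at RPS21, RPL26 and RPL37. RPS21 ranked at 83.3 and 82.3 untreated and at 88.1 and 87.4 with TWEAK (0.58), without overlap, and RPL26 at 38.4 and 35 untreated and 46.6 and 44.7 with TWEAK (0.53). RPL37 differed by 0.53 and RPS25 by -0.41. RPL8 ranked at 85.7 and 87.3 untreated and at 87.9 and 76.6 with TWEAK (-0.40), a spread within the treated pair larger than the difference, and RPS20 differed by -0.33. None passed the test.

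**Figure D5:**
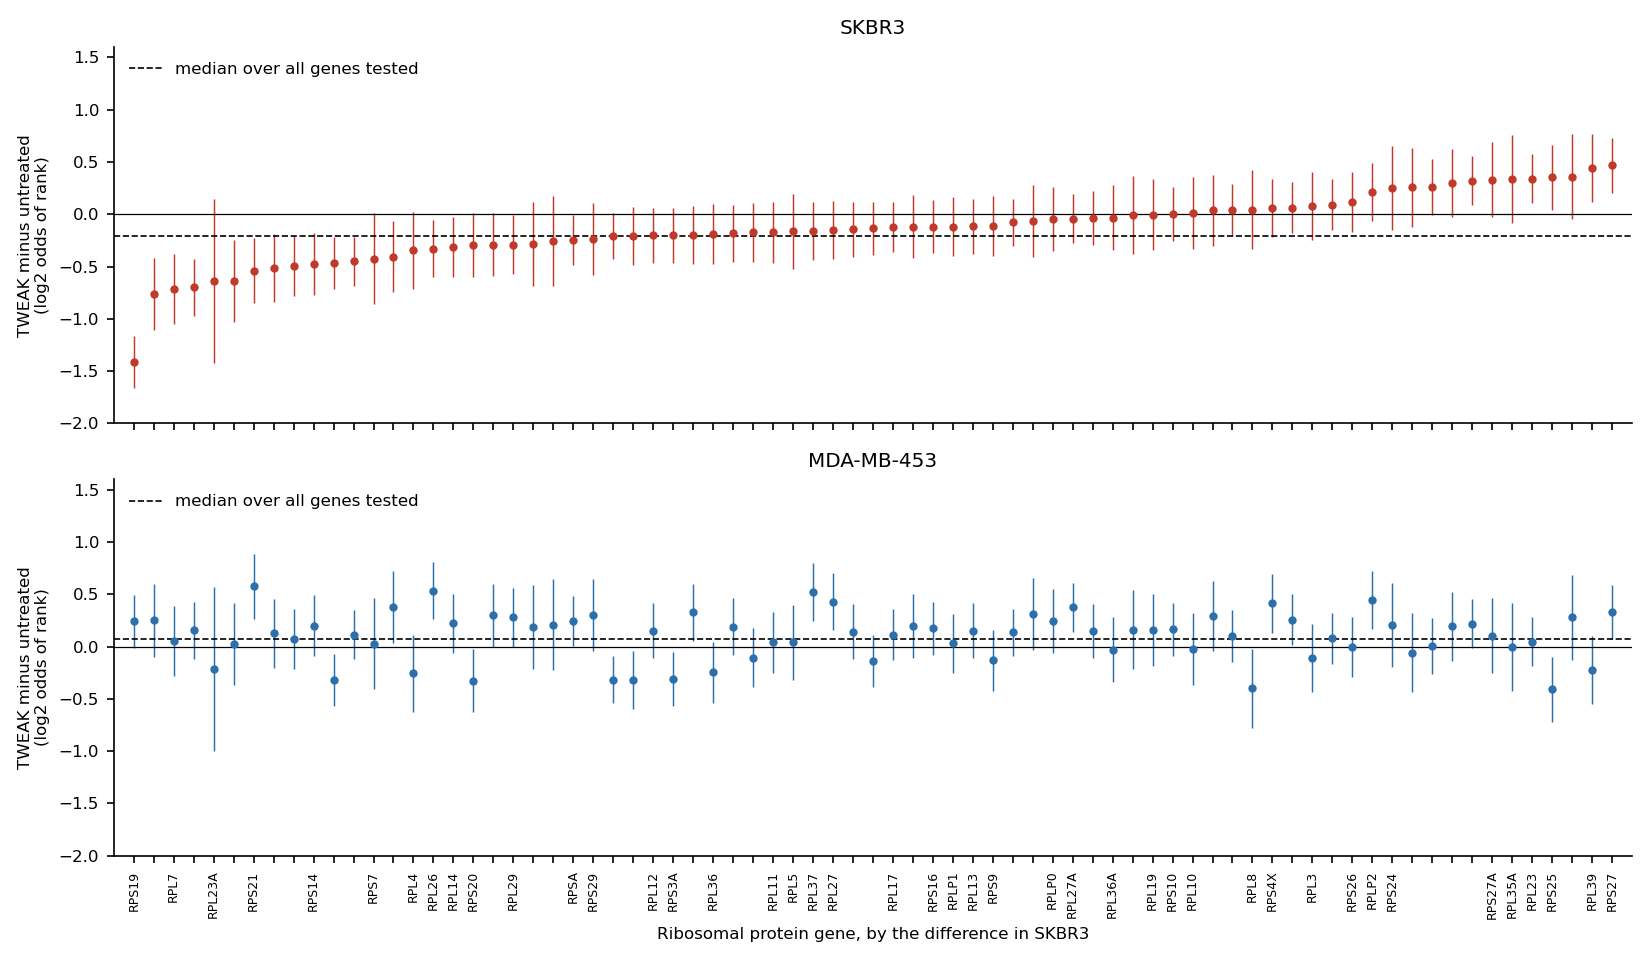
TWEAK minus untreated difference in promoter peak rank (log2 odds) for the 75 ribosomal protein genes in each line, with SE as error bars, the all-gene median dashed and names for the genes described in the text. Values run from -1.41 at RPS19 to 0.47 in SKBR3 and from -0.41 to 0.58 in MDA-MB-453, and no member passes the test.

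In width, 1 member was called for TWEAK. RPS19, the small subunit gene most often mutated in Diamond-Blackfan anaemia, was wider with TWEAK in SKBR3, where 1.01% of all genes were called in either direction and 5 members and 943 genes had an unadjusted p under 0.05. In MDA-MB-453, 0 members passed in limma (0.0404% of all genes), with 6 members and 253 of 9913 genes at an unadjusted p under 0.05. The interaction was called for 0 members in limma (0.242%), with 5 members and 664 genes at an unadjusted p under 0.05 and a lowest adjusted p of 0.307. Differences over members ran from -0.46 to 1.33 in SKBR3 and from -0.78 to 0.68 in MDA-MB-453.

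The RPS19 peak spanned 3530 and 3364 bp in untreated SKBR3 and 9637 and 7794 bp with TWEAK, and 2251 and 2409 bp and 3318 and 2523 bp in MDA-MB-453 (log2 difference in SKBR3 1.33, SE 0.17, limma adjusted p = 0.0338). Both untreated SKBR3 lists held a peak over the start, from -1224 to +2305 and from -1127 to +2236 bp, and a separate peak downstream, from +3267 to +6746 and from +3123 to +8504 bp, with a further peak beyond it, from +7697 and +9415 bp. In the TWEAK lists the peak over the start ran from -1175 to +8461 and from -1268 to +6525 bp, followed by a smaller peak from +9636 and +8497 bp. The long peaks thus overlapped downstream regions that were already listed in untreated cells. Its rank was lower with TWEAK, at 93.9 and 93.1 untreated and 85.0 and 83.8 treated, but the difference of -1.41 did not pass (limma adjusted p = 0.141). Its fold enrichment was 11.4 and 14.2 untreated and 8.54 and 7.67 treated.

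The RPS19 call was fragile. It passed under 11 of 19 alternatives, with differences of 1.18 to 1.48 and adjusted p of 0.0324 to 0.139 in limma. It was lost with the replicate number as a block and without any single library except TWEAK replicate 2 of SKBR3. The width difference between lines in the TWEAK effect was 1.02, with an adjusted p of 0.307 in limma, so it was not shown to be particular to SKBR3.

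A chosen list of 9 members with Diamond-Blackfan anaemia mutations, not meant to be complete, had peaks in all lists for 8. By rank, RPS7, RPS10, RPS19, RPS24, RPL5 and RPL11 were called higher in SKBR3 and RPL35A lower, with a median difference of 1.13, beside the 33.0% and 30.6% of all genes. Ranked by fold enrichment, the calls of RPS7 (adjusted p = 0.1058 in limma), RPS24 (0.05731) and RPL35A (0.1275) were lost, and that of RPS7 was also lost with lists of equal size and at q under 1e-05. RPL5 ranked at 91.8, 83.9, 89.1 and 85.1 in SKBR3 and at 67.0, 65.6, 67.1 and 66.7 in MDA-MB-453. By width, RPS7, RPS19, RPS24 and RPS26 were called wider in SKBR3.

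Promoter features that the choice of members did not use were set beside the ranks. Members with a TOP start had a median percentile of 82.8 in SKBR3 and 77.9 in MDA-MB-453, against 83.1 and 77.2 for those with another start. The 21 members with an ETS core had medians of 85.6 and 69.9, against 82.6 and 80.9 for the 40 tested members without it, with 15 and 14 of them called higher in SKBR3 and 1 and 12 lower, beside 33.0% and 30.6% of all genes. The 28 members that host a small nucleolar RNA had medians of 86.7 and 82.8, against 82.8 and 74.0 for the others. These are descriptions with no test.

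Peaks of mitochondrial ribosomal protein and ribosome biogenesis genes were narrower at the median than those of cytosolic members. All 78 mitochondrial ribosomal protein genes had a promoter peak in all 8 lists, with a median width of 1543 bp in SKBR3 and 1827 bp in MDA-MB-453, against 3918 and 2637 bp for cytosolic members, and their median percentiles were 80.0 and 74.6. Of these 78 genes, 12 were called wider in SKBR3, where 17.6% of all genes were, and 21 narrower, where 34.2% were. Translation factors, with peaks in all lists for 31 of 33, ranked higher at medians of 92.9 and 90.6, with widths of 3036 and 3171 bp. The 24 ribosome biogenesis genes had medians of 81.4 and 83.2, with widths of 2431 and 2359 bp.

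Among related genes outside the symbol rule, FAU, which encodes a ubiquitin-like fusion with a 40S protein, ranked at 85.7 to 93.2 and was in all 8 lists. Among the paralogue copies, RPL39L was listed in the 4 SKBR3 libraries only, at percentiles of 78.6 to 83.6, and RPS27L ranked at 58.7, 59.4, 43.5 and 48.3 in SKBR3 and at 92.2, 91.3, 91.6 and 93.4 in MDA-MB-453. RPS27, its parent, went the other way, at 84.1 to 89.4 in SKBR3 and 65.3 to 74.1 in MDA-MB-453.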

How the data were processed

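Reads were mapped by the authors to hg38 with Bowtie2, peaks were called per library with MACS2 against input, and blacklisted regions were taken out with bedtools. Trimmomatic and deepTools are named in the submitters' processing notes. The calling options are not given in the sources used here. Each deposited list gives a whole-number score, a fold enrichment ratio, and p- and q-values as −log10. The lowest deposited −log10 q was 1.0. The 2 inputs had no list and were not used. No peak fell off the hg38 sequences, and 520 peaks on sequences other than chromosomes 1 to 22 and X were not analysed.

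For each gene, the highest scored peak within 1 kb of a GENCODE release 44 basic start was taken. Genes with such a peak in all 8 lists (9913) were fitted in limma 3.58.1 (R 4.3.3), with 4 groups, no covariate, a trended prior and Benjamini-Hochberg adjustment over all of them, for log2 odds of rank and log2 width. The fits were tested on simulated data. Extents used the canonical start, for which 9558 genes had peaks. Presence was not tested. The study compared signal from reads, which these lists do not hold. A deeper library can list more and wider peaks, and a score is comparable only within its list. The members and the gene lists were chosen with earlier results of these data known. Members were named by extremes of mean rank, width, line difference and TWEAK difference, and by calls; some genes are not reported by name here. Alternatives were other rankings, windows, thresholds, list lengths, peak choices, centring, the replicate block and leaving out each library.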

Additional observations from a re-analysis of the deposited data

How the results depend on the processing

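Of the counts of calls and median percentiles under the alternatives, 190 stayed within 1.5 times the count or 1 SD of the median and 13 moved. The median percentile of members, 84.4 in SKBR3 (SD 0.899 over libraries) and 79.9 in MDA-MB-453 (SD 1.53), was 83.3 and 78.3 by fold enrichment, 67.6 and 67.0 with peaks at q under 1e-05, 80.8 in SKBR3 with lists of equal size, and 60.5 and 53.3 when ranked among promoter genes only. The width call for TWEAK in SKBR3 went from 1 to 0 under the replicate block, and fits without 1 library gave 0 to 2 calls. Without untreated replicate 1 of SKBR3 the call was RPS16, without untreated replicate 2 RPS26 and RPL17, and without TWEAK replicate 1 RPLP0. Over all genes, the number of width calls for TWEAK in SKBR3, 100, was 13 with the block and 39 to 305 without 1 library, and that of rank calls, 11, was 9 with the block and 0 to 154 without 1 library. Differences between lines were called for 41 to 54 members in rank and 23 to 34 in width without 1 library. The cause of these changes was not tested, except that fewer libraries were fitted, and a lone library in a group was assumed to vary like the other groups.

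The replicate numbers of the 2 groups in a line are shared labels and were not shown to pair libraries. Same-numbered libraries deviated together with a correlation of 0.4 in rank and 0.235 in width in SKBR3, and 0.0175 and 0.0265 in MDA-MB-453. With the replicate block, 54 members were called between lines in rank and 32 in width, against 51 and 34 without it, and RPS19 width had an adjusted p of 0.139 in limma.

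For single genes, 556 values kept their direction and side of the threshold. The TWEAK difference in rank reversed for RPL8 without MDA-MB-453 TWEAK replicate 2 (0.17; range without 1 library -0.97 to 0.17) and for RPS20 without MDA-MB-453 untreated replicate 2 (0.11; range -0.76 to 0.11). None of these was called at any setting. RPS3A was called narrower in SKBR3 without either untreated SKBR3 library. With peaks at q under 1e-05, 74 members had a promoter peak in all 8 lists, and RPL26 was the one lost.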

Other observations

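Processed pseudogenes of ribosomal protein genes are many in the human genome and lack the promoters of their parents. Of 1567 such pseudogenes in the annotation, 1.02% overlapped a peak in all 8 lists, against 1.08% of 8947 other processed pseudogenes, and 92.8% against 93.8% overlapped none.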
